A study of Mus musculus with 4 samples.

Results

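The Schlafen genes of mouse chromosome 11 were examined in bone-marrow progenitors with and without Asxl1. The family was taken as Slfn1, Slfn2, Slfn3, Slfn4, Slfn5, Slfn8 and Slfn9, each found by its symbol among the 17956 rows of the deposited table that describe a single locus, and all 7 were found. Libraries came from Lin-Kit+ bone-marrow cells of C57BL/6 mice, the stem and progenitor fraction, which is negative for mature lineage markers and positive for the receptor Kit. Both wild-type (WT) libraries were compared with both libraries of genotype Asxl1-/- (KO), 4 in all, and the comparison asks which transcripts differ when this chromatin regulator is missing. The labels say neither how the allele was made nor how old the mice were, and no label says that replicates were separate animals. Sex-linked transcripts, given below, differ between the replicates of each genotype, so those replicates did not come from the same mouse.

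Schlafen proteins share an N-terminal core, and the mouse family is sorted by length into short (Slfn1, Slfn2), intermediate (Slfn3, Slfn4) and long members (Slfn5, Slfn8, Slfn9), the last of which carry a helicase-like C-terminal part. Several members are induced by type I interferon, whose receptor signals through the kinases Jak1 and Tyk2 to a complex that holds Stat2 and Irf9 and binds the interferon-stimulated response element (ISRE) in promoters. Members have been tied to the quiescence of lymphocytes and myeloid cells, to the binding or cutting of transfer RNA and to the restriction of viruses.

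The WT libraries held 46597871 and 49764454 reads and the KO libraries 83586916 and 76688583, so the KO libraries were deeper. Values are normalised read counts, that is, reads multiplied by 1 factor per library, and are given in the order WT replicate 1, WT replicate 2, KO replicate 1, KO replicate 2. Fold changes are log2 values of KO over WT ± SE on the log2(value + 1) scale, and a gene was called when its limma p-value, adjusted over 13764 tested rows, was under 0.05. Asxl1 matched the labels, with 9742 and 9472 in WT and 146 and 135 in KO. The row Tsix+Xist was at 103006 and 89290.1 in replicate 1 of WT and KO and at 2123 and 147 in replicate 2, while Y-linked Eif2s3y was at 11.7 and 3.03 against 6581 and 7647. Replicate number and these sex-linked transcripts therefore cannot be told apart. For the members, fold changes within each replicate number are given beside the pooled ones.

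The long members were lower in KO, Slfn5 only as a merged row, Slfn2 was higher, and Slfn1, Slfn3 and Slfn4 were not called. Slfn1 and Slfn4 were called higher once the replicate number was a term of the fit, but in no other fit that kept every library. All 7 members passed the filter on low values. Of them, 3 were called lower, where 8.97% of all tested rows were, and 1 was called higher, where 11.9% were; 20.9% of tested rows were called in either direction. The KO libraries lay below both WT libraries for the same 3 members and above both for Slfn2, and the libraries of the other 3 overlapped, against 33.6% of tested rows below, 32.5% above and 66.1% in either direction. The median fold change of the 7 was 0.15, with -0.01 over all tested rows. The members were chosen with earlier results of these data known.

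**Figure D1:**
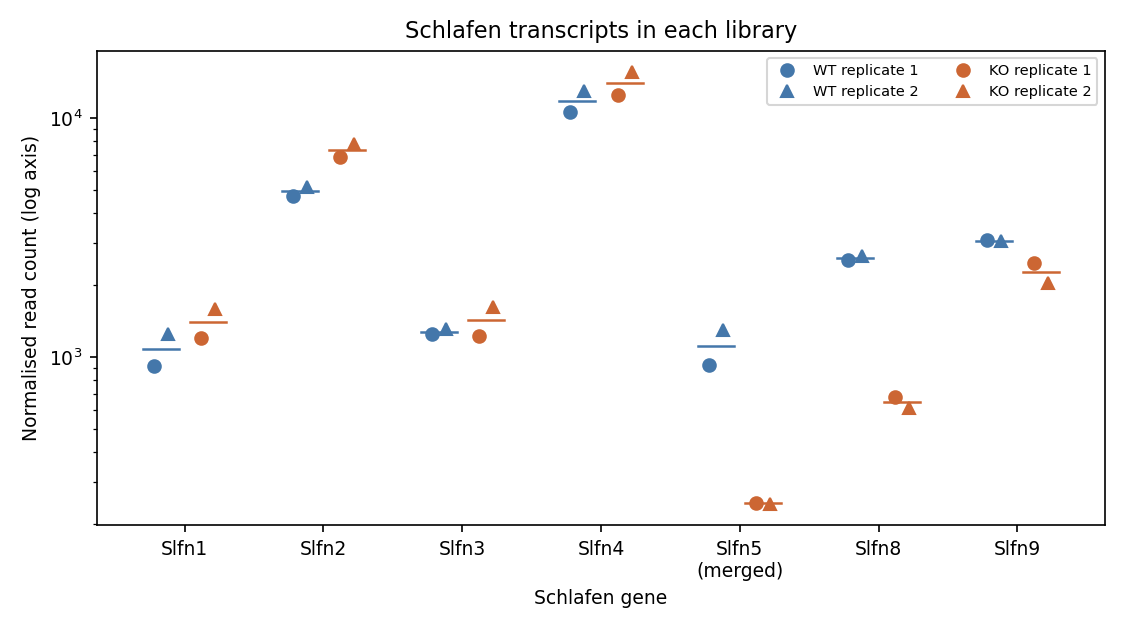
Normalised read counts (log axis) of the 7 Schlafen genes in each library, with WT in blue, KO in orange, replicate 1 as circles, replicate 2 as triangles and group means as bars. Slfn8 and the row that holds Slfn5 drop in both KO libraries, Slfn9 drops less, and Slfn2 lies at 6871 and 7806 in KO against 4709 and 5165 in WT.

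Among the long members, Slfn8 was at 2542 and 2653 in WT and at 681 and 613 in KO. Both KO libraries were far below both WT libraries, and the KO mean of 647 ± 47.7 (SD, n = 2) was 24.9% of the WT mean of 2598 ± 78.0 (SD, n = 2). The fold change was -2.01 ± 0.09 (adjusted p = 0.000911), with -1.90 within replicate 1 and -2.11 within replicate 2. It ranked at position 72 from the lowest of all 13764 tested rows. Slfn8 encodes a long Schlafen with the helicase-like part and lies at 82815659 to 82834312 of chromosome 11 in the table's build, mm9.

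Slfn5 was counted only in a row merged with its neighbour Unc45b, a chaperone of muscle myosin, and the transcript AK005634. This row (82724754 to 82778352) was at 923 and 1303 in WT and at 246 and 243 in KO. The KO libraries lay close together and below both WT libraries, which were further apart (1113 ± 268 against 245 ± 1.51, SD, n = 2). The fold change was -2.16 ± 0.18 (adjusted p = 0.00202), -1.91 within replicate 1 and -2.41 within replicate 2, and the row ranked at position 50 from the lowest. Slfn5 is a nuclear member known to act in interferon-dependent transcription. The reads of the merged row cannot be divided between its genes, RefSeq places the antisense gene Slfn5os over the same stretch, and strand handling is not stated.

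Slfn9, another long member, had a smaller fold change. It was at 3093 and 3051 in WT and at 2479.9 and 2046 in KO, again with both KO libraries below both WT libraries. The KO mean of 2263 ± 307 (SD, n = 2) was 73.7% of the WT mean of 3072 ± 29.2 (SD, n = 2), a fold change of -0.45 ± 0.10 (adjusted p = 0.0292). Within replicate 1 it was -0.32 and within replicate 2 it was -0.58. The call was lost without WT replicate 1 (-0.44, adjusted p = 0.132) and without WT replicate 2 (-0.46, adjusted p = 0.11). Across the 4 pairings of a KO with a WT library the change of Slfn9 ran from -0.60 to -0.30 and that of Slfn8 from -2.11 to -1.90, so these ranges did not overlap, and the difference between the fold changes was not tested.

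Slfn8 and Slfn9 are close copies. Their coding sequences are both 2730 bases long and identical at 92.7% of aligned bases, and 9.01% of the 50-base words of the Slfn8 transcript also occur in that of Slfn9, so the split of reads between the pair is uncertain. Slfn9 had 1.22 and 1.15 times the reads of Slfn8 in WT and 3.64 and 3.34 times in KO. The summed value of both rows, which does not depend on reads moved from one to the other, went from 5635 and 5704 in the WT libraries to 3161 and 2659.5 in the KO libraries. Slfn10-ps, a pseudogene of the long type next to Slfn8, was at 654 and 659.8 in WT and at 481 and 427 in KO (-0.53 ± 0.12, adjusted p = 0.03), and its call was lost without WT replicate 1, WT replicate 2 or KO replicate 2 (adjusted p = 0.156, 0.151 and 0.0524).

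The promoters of the members that fell are shown because each holds an exact motif match that the windows of the others lack. Slfn8 and Slfn9, which are close copies, share the matched bases, and those of Slfn5 differ. RefSeq promoter windows, which run from 250 bases before to 50 after an annotated start on GRCm38, were available for all 7 members. They were searched on both strands for the ISRE core (GAAA, any 2 bases, GAAA) and for the gamma-activated site TTCNNNGAA, each on its own, so that matches of the motifs may overlap. An ISRE core match was found in the windows of Slfn5, Slfn8 and Slfn9 and in none of Slfn1, Slfn2, Slfn3 and Slfn4, and 3.99% of the 27025 genes with a window hold one. A gamma-activated site match was found in no member, while 9.55% of genes hold one. The 250 bases before the start follow for the 3 genes and, for contrast, for Slfn2. Each is written 5′ to 3′ on the gene's strand, with the ISRE core match in capitals.
Slfn5, chr11:82951852-82952101, plus strand: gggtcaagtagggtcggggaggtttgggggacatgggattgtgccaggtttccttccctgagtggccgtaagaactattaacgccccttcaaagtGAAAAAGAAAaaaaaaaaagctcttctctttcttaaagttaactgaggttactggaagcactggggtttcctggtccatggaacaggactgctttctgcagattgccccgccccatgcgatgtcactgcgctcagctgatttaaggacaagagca
Slfn8, chr11:83020811-83021060, minus strand: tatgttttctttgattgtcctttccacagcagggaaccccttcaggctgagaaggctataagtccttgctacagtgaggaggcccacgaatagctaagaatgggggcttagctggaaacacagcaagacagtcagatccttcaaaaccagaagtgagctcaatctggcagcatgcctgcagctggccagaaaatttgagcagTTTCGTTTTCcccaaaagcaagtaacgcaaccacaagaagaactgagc
Slfn9, chr11:82991831-82992080, minus strand: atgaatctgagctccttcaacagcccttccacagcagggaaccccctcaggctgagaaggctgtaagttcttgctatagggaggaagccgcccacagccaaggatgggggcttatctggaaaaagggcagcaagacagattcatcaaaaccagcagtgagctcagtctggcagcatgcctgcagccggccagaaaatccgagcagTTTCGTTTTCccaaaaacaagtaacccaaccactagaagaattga
Slfn2, chr11:83064862-83065111, plus strand: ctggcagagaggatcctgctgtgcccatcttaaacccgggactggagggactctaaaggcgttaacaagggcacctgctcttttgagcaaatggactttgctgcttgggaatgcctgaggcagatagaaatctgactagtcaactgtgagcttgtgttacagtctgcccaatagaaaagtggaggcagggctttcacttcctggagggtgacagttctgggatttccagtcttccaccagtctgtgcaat

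In Slfn5 the match lies 155 to 146 bases before the start, reads along the gene and runs into a stretch of A. In Slfn8 it lies 48 to 39 bases before the start and in Slfn9 45 to 36 bases before it, in both on the opposite strand, where the printed strand reads TTTCGTTTTC. Slfn8 has a second annotated start, and its window holds the same match 136 to 127 bases before that start. A match is a description of the letters and does not show that a factor binds there. The absence of a match in Slfn1 to Slfn4 says only that these exact letters are not in the window. Their windows do hold stretches that differ from the pattern at a single base. These include AAAACTGAAA in Slfn1, TTTCACTTCC in Slfn2, GTAAAAGAAA in Slfn3 and TTTCACTTTT in Slfn4, the TTTC forms on the opposite strand. How often such near matches occur over all genes was not counted. Tested rows with a promoter window were counted after the members' matches had been seen. Of the 368 with an ISRE core match, 17.4% were called lower and 8.97% higher, against 9.07% and 12.6% of the 9055 without one. The 368 include the Slfn5 row, Slfn8 and Slfn9, and a link between the match and the changes was not tested. Slfn9 carries the same 10 bases as Slfn8 and had the smaller fold change.

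Slfn2 was the only member called higher with genotype alone in the fit. It was at 4709 and 5165 in WT and at 6871 and 7806 in KO, with both KO libraries above both WT libraries. The KO mean of 7338 ± 662 (SD, n = 2) was 149% of the WT mean of 4937 ± 322 (SD, n = 2), a fold change of 0.57 ± 0.08 (adjusted p = 0.00814), with 0.54 within replicate 1 and 0.596 within replicate 2. Slfn2 is a short member whose loss of function in mice breaks the quiescence of T cells and monocytes, and its protein binds transfer RNA and shields it from stress-induced cleavage. Its row overlaps that of AK135766, which was at 72.5 and 106 in WT and at 95.5 and 109.7 in KO and was not called (0.22 ± 0.28, adjusted p = 0.599).

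Slfn1, the other short member, was named for its part in the arrest of thymocyte growth. It was at 921 and 1246 in WT and at 1207 and 1596 in KO. KO replicate 1 lay below WT replicate 2, so the groups overlapped, and the fold change of 0.37 ± 0.19 was not called (adjusted p = 0.205). Within replicate 1 it was 0.39 and within replicate 2 it was 0.36, and in a fit with the replicate number, and so the split in sex-linked transcripts, as a term it was called higher (adjusted p = 0.0265).

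The intermediate members were not called with genotype alone in the fit. Slfn4, which is abundant in myeloid cells and induced there by interferon and bacterial products, was at 10593 and 12951 in WT and at 12528 and 15566 in KO. WT replicate 2 lay above KO replicate 1, and the fold change was 0.25 ± 0.13 (adjusted p = 0.212), or 0.24 and 0.27 within replicates 1 and 2, and it was called higher with the replicate number as a term (adjusted p = 0.014). Slfn3 was at 1245 and 1309.9 in WT and at 1227 and 1628 in KO, so KO replicate 1 lay below both WT libraries and KO replicate 2 above both. Its fold change was 0.15 ± 0.14 (adjusted p = 0.492), or -0.02 and 0.31 within replicates 1 and 2, and its sign changed without KO replicate 2 (-0.06). Without KO replicate 1 both were called higher, Slfn3 at 0.35 (adjusted p = 0.041) and Slfn4 at 0.41 (adjusted p = 0.0401). Their coding sequences are identical at 95.3% of aligned bases, and 14.3% of the 50-base words of the Slfn3 transcript also occur in that of Slfn4, so their reads may have been shared. The summed value of both came to 11837 and 14261 for WT and to 13755 and 17194 for KO, with the groups overlapping.

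**Figure D2:**
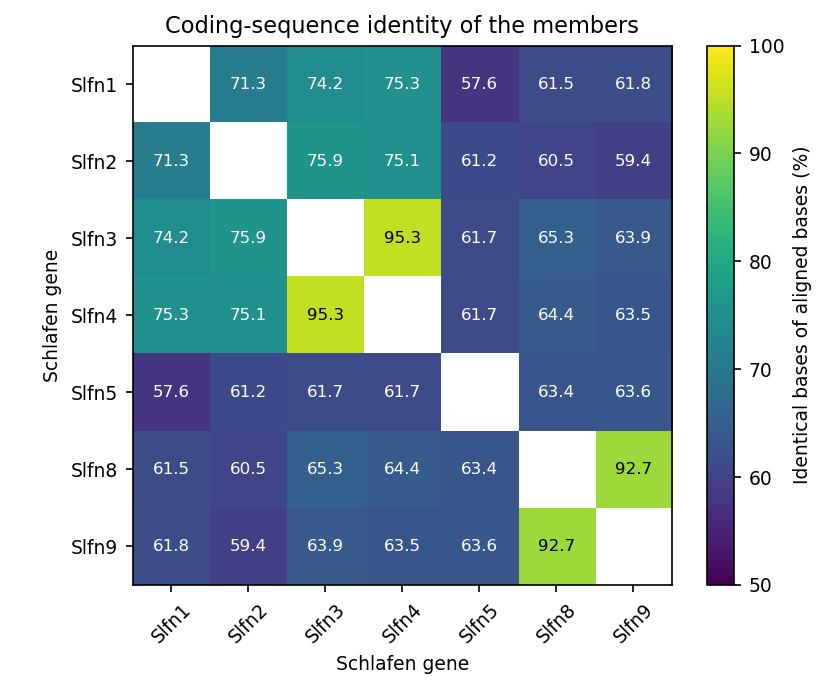
Identity of the coding sequences of the 7 members from GENCODE M21 transcripts, as the percentage of aligned bases that are the same, for each pair of genes. Slfn3 with Slfn4 (95.3%) and Slfn8 with Slfn9 (92.7%) stand out, and the other pairs lie between 57.6% and 75.9%.

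Short and intermediate members resemble each other more than they resemble the long ones. Coding sequences of Slfn1, Slfn2, Slfn3 and Slfn4 were 1011, 1134, 1551 and 1806 bases long and 71.3% to 95.3% identical to one another over the aligned bases. Slfn5 had 2652 coding bases and was 63.4% identical to Slfn8 and 63.6% identical to Slfn9. Between Slfn2 and the long members the identity was 59.4% to 61.2%, and no 50-base word was shared. Of the Slfn2 transcript's words, 4.27% occur in that of Slfn4.

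Levels of different members were compared per length, as RPKM, reads scaled to library total and to the kilobases of the transcript with the longest coding sequence, without Slfn5 because of its merged row. In WT, Slfn4 (49.1 ± 6.76, SD, n = 2) and Slfn2 (49.0 ± 3.01) were highest and their libraries overlapped. Slfn3 (11.6 ± 0.373), Slfn8 (10.7 ± 0.279), Slfn1 (9.60 ± 2.00) and Slfn9 (8.80 ± 0.119) followed, and the libraries of Slfn1 overlapped those of Slfn8 and Slfn9. In KO the order was Slfn2 (69.7 ± 6.33), Slfn4 (56.1 ± 8.62), Slfn3 (12.4 ± 2.48), Slfn1 (11.9 ± 2.34), Slfn9 (6.20 ± 0.834) and Slfn8 (2.55 ± 0.186). Slfn3 and Slfn1 overlapped there, and Slfn8 moved from the fourth to the last place. The order at the top depends on the length used: per kilobase of coding sequence, Slfn4 lay above Slfn2 in every library, at 97.2 and 118 against 68.8 and 75.0 in WT and at 109.5 and 136 against 95.6 and 109 in KO.

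The family's total overlapped between genotypes while its make-up differed. Summed over the 7 rows, Schlafen reads came to 398 and 456 CPM (reads scaled to the library total) in WT and to 398 and 466 in KO. The long members made up 27.3% and 25.3% of that sum in WT and 13.5% and 9.84% in KO. Short members, mostly Slfn2, made up 23.4% and 23.2% in WT and 32.0% and 31.9% in KO. Intermediate members, mostly Slfn4, made up 49.3% and 51.5% in WT and 54.5% and 58.3% in KO. Of the summed RPKM, which weights reads by length and counts the merged row by the length of Slfn5, the intermediate share did not separate the genotypes, at 42.0% and 43.5% in WT and 41.5% and 44.2% in KO. The short share was 41.5% and 41.1% against 51.6% and 50.8%, and the long share 16.5% and 15.3% against 6.92% and 5.02%. For each Slfn8 read there were 1.85 and 1.95 Slfn2 reads in WT and 10.1 and 12.7 in KO.

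**Figure D3:**
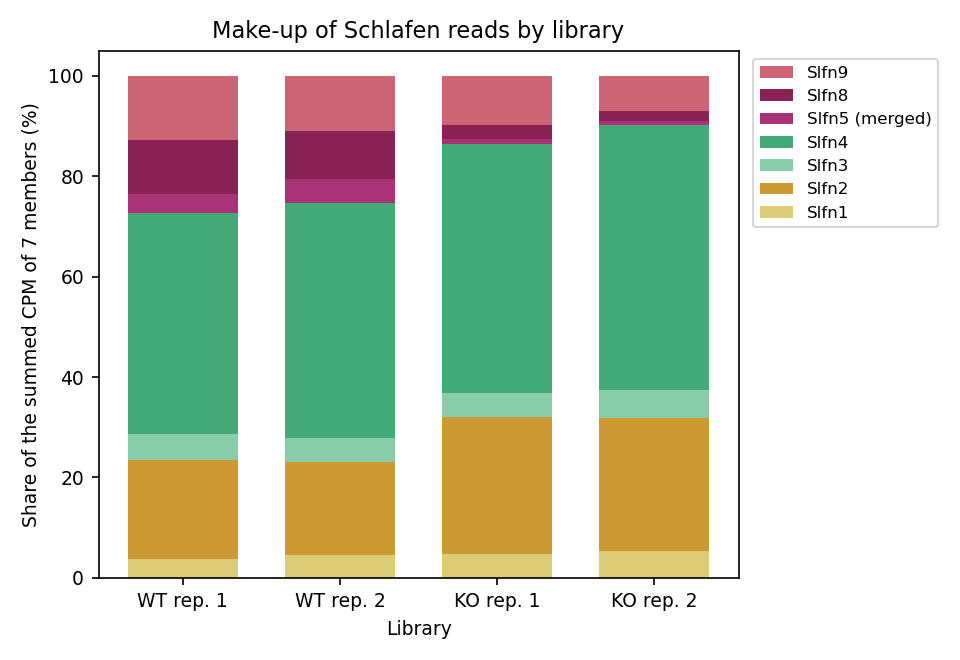
Share of each Schlafen row in the summed CPM of the 7 rows (%, linear axis from 0), by library. The stacked shares of Slfn5 (merged row), Slfn8 and Slfn9 at the top shrink from 27.3% and 25.3% in WT to 13.5% and 9.84% in KO, and that of Slfn2 grows from 19.6% and 18.7% to 27.2% and 26.5%.

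The members lie in 1 stretch of 304 kb, and the rows around it were read in the same fit. Along the stretch the rows that fell (Slfn5, Slfn9, Slfn8 and Slfn10-ps) come first, and Slfn2, Slfn1, Slfn4 and Slfn3 follow. Within 500 kb of the stretch 23 rows other than members were tested, of which 6 were called lower and 2 higher, with a median fold change of -0.08. Over all tested rows 8.97% were called lower and 11.9% higher. The 6 include Slfn10-ps, which lies inside the stretch. The rows directly beyond Slfn5 were not called: Nle1, a ribosome assembly factor, changed by -0.08 ± 0.08, the merged DNA repair row TRAD/RAD51L3+Rad51l3 by 0.03 ± 0.07, the row Rffl+Lig3 by 0.04 ± 0.05, Zfp830 by 0.00 ± 0.07, Fndc8 by 0.11 ± 0.46, Cct6b by 0.59 ± 0.48 and Tmem132e by -0.24 ± 0.32. Beyond Slfn3, the noncoding AI662270 (-0.20 ± 0.04), the clathrin adaptor gene Ap2b1 (-0.22 ± 0.05) and Taf15 (-0.32 ± 0.08), an RNA-binding protein gene, were called lower by small amounts. The chemokine genes Ccl5 (-1.14 ± 0.28) and Ccl9 (-0.56 ± 0.12) were called lower, and Ccl3+AK137525 (0.398 ± 0.10) and 1700020L24Rik (0.397 ± 0.09) higher. Among those not called were Ccl6 (0.98 ± 0.28), ScyA4+Ccl4 (-0.53 ± 0.22), Mmp28 (-0.11 ± 0.13), Gas2l2 (0.32 ± 0.49) and Gm11428 (-0.69 ± 0.51). Slfn14-ps, whose gene RefSeq now lists as the coding gene Slfn14, had 19 and 24 reads in WT and 45 and 23 in KO and was not called (-0.07 ± 0.43). Slfnl1, a Schlafen-like gene on chromosome 4, had 9 and 13 reads in WT and 46 and 23 in KO (0.87 ± 0.48, adjusted p = 0.236). Without WT replicate 1 the neighbours' counts were 1 lower and 0 higher, and without WT replicate 2 they were 0 and 0.

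**Figure D4:**
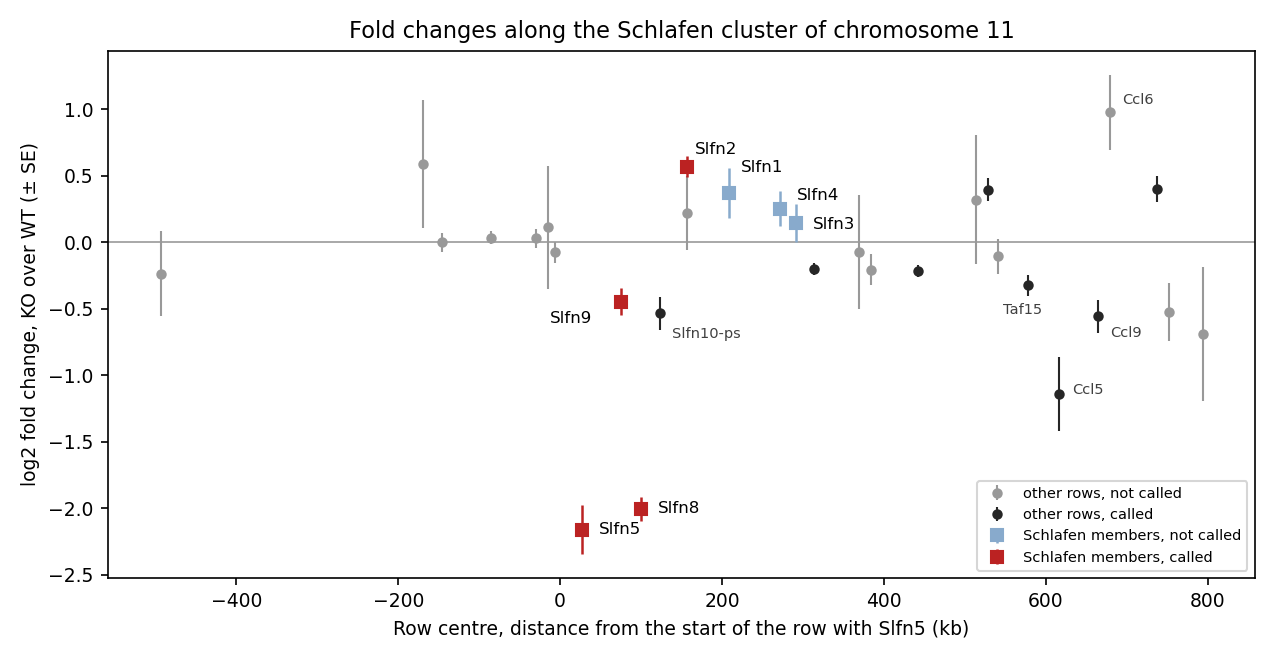
log2 fold changes (KO over WT, ± SE) of tested rows against the distance of the row's centre from the start of the row with Slfn5 (kb). Schlafen members are squares, red where called, and other rows are dots, black where called. The members that fell, Slfn5 (merged row), Slfn9 and Slfn8, lie left of those that did not. The rows further left lie near 0 or have wide errors.

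Genes of type I and II interferon signalling and its feedback moved in part. Of 18 such genes, 7 were called lower, where 8.97% of all tested rows were, and 3 higher, where 11.9% were. Their median was 0.04. Factors of the ISRE-binding complex and its response fell, among them Irf9 from 6045 ± 156 to 3535 ± 197 (SD, n = 2; -0.77 ± 0.06, adjusted p = 0.00185), Stat2 by 0.35 and Irf7, which amplifies the response, by 1.57. Usp18, an interferon-induced brake on the receptor, fell by 2.15. The receptor chains Ifnar1 and Ifngr2 fell by 0.23 and 0.27, whereas the merged row Raver2+Jak1 (0.04 ± 0.05), Tyk2 (0.07 ± 0.06), Irf1 (0.18 ± 0.09) and Socs1 (0.17 ± 0.18) were not called. The called genes that rose were Socs3, an inhibitor of cytokine signalling (0.87 ± 0.15), Jak2 (0.27 ± 0.05) and the merged row AK048048+Ptpn6 (0.33 ± 0.07). Without WT replicate 1 the counts were 4 lower and 0 higher, and without WT replicate 2 they were 4 and 1.

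Interferon-stimulated genes outside the family fell almost without exception. Of 25 in the list, 24 were called lower and 0 higher, where 8.97% and 11.9% of all tested rows were. The list, like the others, was chosen with earlier results of these data known. The median was -1.77, and Ifit2 alone was not called (0.03 ± 0.06). The Slfn5 row lay between Isg15 (-2.19 ± 0.24) and Mx1 (-2.09 ± 0.26), and Slfn8 lay between Mx2 (-1.85 ± 0.19) and Xaf1 (-2.09 ± 0.12). Slfn9 changed less than the least changed called gene of the list, the merged row with Herc6 (-0.53 ± 0.07). Slfn1, Slfn2, Slfn3 and Slfn4, with fold changes of 0.15 to 0.57, lay above every called gene of the list.

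Genes of the processes that Schlafen proteins are tied to were read in the same fit, in which 11.9% of all rows were called higher and 8.97% lower. Of 18 genes that cut, modify or protect transfer RNA or run the translational stress response, 2 were called lower and 2 higher, with a median of 0.00, a share near that of all rows. Among the lower ones was Eif2ak2, the kinase activated by double-stranded RNA, which the interferon list also holds (-0.77 ± 0.11). The higher ones were the stress factor Atf4 (0.36 ± 0.05) and Ppp1r15a (0.58 ± 0.09), which helps to reverse the stress response. The row Ang+Rnase4, which holds the gene of the tRNA-cutting ribonuclease angiogenin, was not called (-0.36 ± 0.12, adjusted p = 0.0895). Of 19 quiescence-linked genes 5 were called higher and 1 lower, with a median of 0.10. Btg1 (0.58 ± 0.07), Tob1 (0.79 ± 0.10), Btg2 (0.50 ± 0.07), Klf4 (0.59 ± 0.14) and Klf2 (1.17 ± 0.31) rose and Txnip+AK143784 fell by 0.20. Without WT replicate 1 the transfer RNA list had 1 lower and 0 higher members, and without WT replicate 1 or 2 the quiescence list had 3 higher and 0 lower.

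**Figure D5:**
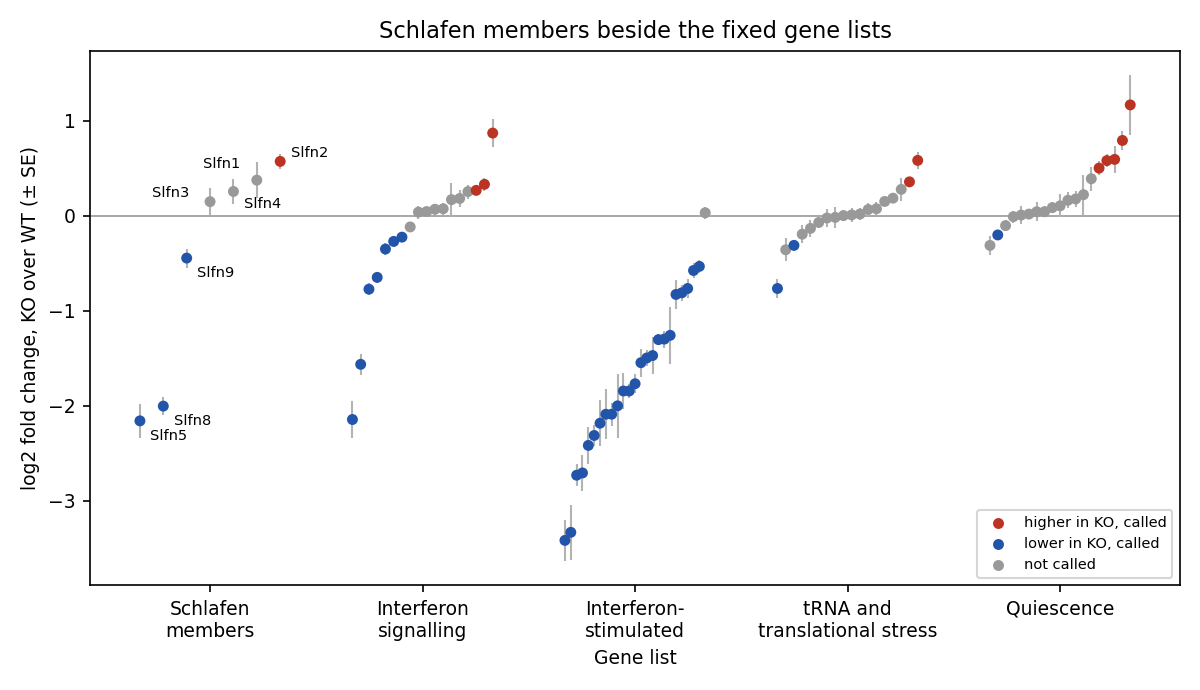
log2 fold changes (KO over WT, ± SE) of the 7 Schlafen members and of the genes of 4 lists, sorted within each list, with called genes in red (higher) or blue (lower). Slfn5 (merged row) and Slfn8 lie in the range of the interferon-stimulated list, of which 24 of 25 genes are called lower. Slfn1 to Slfn4 lie above 0.

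Rows whose profile over the 4 libraries was most like each member were found by the Euclidean distance of log2 values centred on their own mean. Nearest to Slfn8 were Efhd1 (distance 0.07), the interferon-induced Xaf1 (0.11) and Gpr45 (0.19). BC023105 (0.198) and Gpr45 (0.21), both at low counts, and the nucleic acid sensor gene Zbp1 (0.26) were nearest to the Slfn5 row, and Slfn8 lay at 0.36 from it. For Slfn9 they included Atp10a and Snap47 (0.02 and 0.03), while Slfn8 lay at 1.56. Slfn2 was nearest to Cln3, the immediate-early gene Jun and mKIAA1857+Ntng2 (all 0.02). For Slfn4 the nearest were Clstn1, Nlrp1c and Habp4 (0.04, 0.05 and 0.05), for Slfn3 AK043516, Hk2 and Ptges2 (0.03, 0.04 and 0.04), and for Slfn1 2210411K11Rik, 4930506M07Rik and Tsc22d3+Tilz3b (0.07, 0.08 and 0.08). Efhd1, Nlrp1c and AK043516 were at low counts as well, with SEs of 0.33, 0.44 and 0.30 for their fold changes. These distances are a description over 4 libraries that share 2 genotypes and differ in depth.

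Markers of several blood lineages moved with genotype, and in bulk RNA fewer cells of a type and less RNA per cell cannot be told apart. Over all tested rows 8.97% were called lower and 11.9% higher. The labelled cells carried Kit transcripts, with the row AK047175+Kit at 16944 ± 1125 in WT and 18686 ± 287 in KO (SD, n = 2). Of 12 progenitor markers 2 were called lower, the merged row with Cd34 (-0.83 ± 0.05) and Flt3 (-0.61 ± 0.16), and 0 higher. The median of the 12 was -0.16, and their summed level went from 14167 and 13075 CPM in WT to 11810 and 10550 in KO. Of 10 mature neutrophil markers 9 were called higher, S100a9, S100a8, Lcn2 and Ltf first by p, and their summed level went from 17300.2 and 19185 CPM in WT to 33158 and 30993 in KO. Of 12 monocyte and macrophage markers 3 were called higher (Itgam, Emr1 and Cd14) and 4 lower (Csf1r, C1qb, Cx3cr1 and C1qa), with a sum of 1155 and 1158 CPM in WT and 1516 and 1412 in KO. Of 13 T and NK cell markers 3 were called lower (Lck, Cd4 and Thy1), with a sum of 282 and 269 CPM in WT and 233 and 205 in KO, and Cd3e was at 29.6 ± 3.92 and 16.5 ± 10.5. Of 9 B cell markers 3 were called lower (Cd79a and Cd79b among them), with 1418 and 1389 CPM in WT and 1045 and 724 in KO. Of 8 tested plasmacytoid dendritic cell markers 2 were called lower (the interferon-induced Bst2 and Tcf4), with 409.997 and 449 CPM in WT and 316 and 349 in KO, and of 12 erythroid and megakaryocyte markers 6 were called higher (Tfrc, Car1, the merged row with Itga2b, Alas2, Gata1 and Epor), with 1197 and 1266 against 1970.1 and 2195. No tested marker was at 0 in any library. The part of these shifts in the Schlafen changes was not tested.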

How the data were processed

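RNA of Lin-Kit+ cells was sequenced in 2 WT and 2 KO libraries. STAR 2.3.1t and build mm9 are named in the submitters' processing notes; for the counter, annotation, strand, multiply matching reads and scaling tool the sources used here give nothing. The deposited signal values are scaled read counts with a constant factor in each library: 100% are whole multiples of the smallest value above 0 in their library, within 0.001 of a read. Dividing by that step (1.30, 1.22, 0.758 and 0.825) recovered the reads, and 3 reads, the limit that a count of 0 allows, equal 3.89, 3.66, 2.27 and 2.48. The 4893 rows that join neighbouring loci (0.0619% to 0.0676% of reads) were left out of the comparisons. No value column was left unused.

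limma 3.58.1 (R 4.3.3) with a mean-variance trend was run on log2(value + 1) with genotype alone in the model, over single-locus rows reaching 10 in 2 or more libraries, with Benjamini-Hochberg adjustment and a threshold of 0.05. It was tested on simulated data. With 2 libraries per genotype the p-values measure only the spread between these libraries. Within each genotype the libraries differ in Tsix+Xist and Eif2s3y, so this spread mixes that difference with other variation between mice and any technical variation. Alternatives were other pseudocounts, filters and scalings, limma-voom, edgeR 4.0.16 and DESeq2 1.42.0 on recovered reads, a replicate block and leaving out each library. edgeR with TMM, run on the recovered reads, called 1619 rows higher and 1220 lower. Transcript lengths and coding sequences are from GENCODE M21 (RefSeq gave no exon lengths), promoters from RefSeq on GRCm38; no coordinate was moved between builds, and protein sequences were not used here.

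Named genes are Asxl1, all members, other Schlafen and tested neighbouring rows, up to 4 called genes per list by p (the 2 with the smallest p where none was called), and the 3 rows nearest in profile to each member. Other list genes are named to show a list's called members or an upstream step and were chosen after their values were seen. Some genes that this rule selects are not reported here. Members and lists were chosen with earlier results of these data known.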

Additional observations from a re-analysis of the deposited data

Results flagged for a closer look

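Among rows left out of the comparisons, the row that joins Slfn2 with the overlapping transcript AK135766 held 4 and 2 reads in the KO libraries, 6 in all, and 0 in both WT libraries. It was picked out because it lies in data that the comparisons do not use and is above the WT level and above 3 reads. The other 4 joined rows with a member held 0 to 4 reads per library, and these counts are too few to bear on the fold change of Slfn2.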

How the results depend on the processing

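Over 15 alternatives, Slfn2, Slfn8 and the Slfn5 row kept their direction and their call in all, and Slfn9 in 13. Scaling to total reads called 1329 rows higher and 2058 lower, and upper-quartile scaling 1408 and 1902, against 1640 and 1235 with the deposited scaling; the former called 1 neighbouring row higher. Without 1 library at a time, calls over all rows ranged from 603 to 1714 higher and from 266 to 1542 lower, those of members from 1 to 3 higher and from 2 to 3 lower, those of neighbours from 0 to 3 higher and from 0 to 5 lower, and those of listed genes from 3 to 12 higher and from 26 to 33 lower. The fold change of Slfn9 then ranged from -0.59 to -0.31, that of Slfn4 from 0.097 to 0.41 and that of Slfn3 from -0.057 to 0.35, with the sign reversed without KO replicate 2. The cause was not tested. A lone library was assumed to vary like the other genotype's. With 2 libraries per genotype, rows with few reads, such as Slfn14-ps, have wide errors.

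The labels give both genotypes the replicate numbers 1 and 2 but no shared animal or batch. Deviations of same-numbered libraries correlated at 0.25 over rows. With the replicate block, 3 members were called higher, Slfn2, Slfn1 (0.37, adjusted p = 0.0265) and Slfn4 (0.25, adjusted p = 0.014), and 1906 rows were called higher and 1533 lower.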
